A study of Mus musculus with 6 samples.

Results

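The genes described here are the 10 that encode the cell's reader for bacterial lipopolysaccharide (LPS) and the first proteins it engages: Tlr4, Ly96, Cd14, Lbp, Myd88, Tirap, Ticam1, Ticam2, Irak1 and Irak4. They were found by mouse symbol among the 22442 genes of the deposited table, and all 10 were present. The question put to them was whether the LPS receptor complex was expressed in LPS-treated renal tubular epithelial cells and whether it was even between cells given a negative control and cells given an RNA against Stat3. After LPS, transcripts of 9 of the 10 were found in every library, while those of Ticam2 were at or under the detection limit in 5 of 6. None of the 9 passed an adjusted p of 0.05 between the groups, although Cd14 lay at that threshold.

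Recognition of LPS is a relay. LBP, a serum protein, takes LPS from bacterial membranes and passes it to CD14, which loads it into the pocket of MD-2 (the product of Ly96) on the receptor TLR4. At the plasma membrane, paired TLR4 recruits the sorting adaptor TIRAP and the signalling adaptor MyD88, which gathers the kinases IRAK4 and IRAK1 and leads to NF-κB and inflammatory cytokines. Once TLR4 is taken into endosomes, a step that CD14 promotes, the adaptors TRAM (Ticam2) and TRIF (Ticam1) lead to IRF3 and type I interferon. Tubular epithelium is known to carry TLR4 and to be exposed to LPS in sepsis.

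The 6 RNA-seq libraries came from mTECs, a murine renal tubular epithelial line that the study describes as immortalised and the sample labels as magnetically sorted. All cultures received LPS at 20 μg/ml for 24 h. A negative control had first been transfected into the 3 cultures labelled LPS, and siRNA for Stat3 silencing into the 3 labelled LPSKD, while the study also lists an shRNA against Stat3. The labels do not say whether the 3 libraries of a group were separate cultures, so p-values measure only the spread between these samples, which may be technical. Cultures without LPS were not analysed here, so every level below is a level after LPS.

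Stat3, the targeted transcript, was at 34.6, 31.4 and 35.2 FPKM in the LPS libraries and at 30.8, 35.2 and 34.3 FPKM in the LPSKD libraries, a log2 fold change of −0.01 ± 0.07 (SE, limma adjusted p = 0.944). The targeted gene thus did not separate the groups, and the names LPS libraries and LPSKD libraries stand here for the labels alone. FPKM counts fragments per gene after scaling by gene length and library total. Library totals were 24084827 to 25422171 fragments. Among 18 tubule markers, the keratin Krt18 was the most abundant, with means of 1290 and 1164 FPKM in the LPS and LPSKD libraries, whereas Slc34a1, Umod and Aqp2, which mark differentiated segments, were listed at 0 in every library. In limma, 1.57% of all genes tested were higher and 1.66% lower in the LPSKD libraries at an adjusted p under 0.05. Of the 11 tubule markers tested, Cdh16, Pax8, Pax2 and Aqp1 were higher and Krt18 was lower. Without a trend in eBayes only Pax2 of these 5 passed. The call of Cdh16 was lost without LPS or LPSKD replicate 3 (adjusted p 0.058 and 0.057), that of Aqp1 without LPS replicate 3 or LPSKD replicate 2 or 3 (0.0768 to 0.0868), and that of Krt18 without any library but LPS replicate 1 (0.0582 to 0.158).

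Of the receptor genes, Cd14 was the most abundant, with a mean of 68.7 FPKM over the 6 libraries, above 86.7% of the 16837 genes detected in any library. Tlr4 had a mean of 17.9 FPKM (percentile 62.1), while Lbp and Ly96 had 6.79 and 6.64 FPKM (percentiles 47.5 and 47.2). Among the cytoplasmic genes Irak1 led with 54.8 FPKM (percentile 83.1). Tirap and Myd88 followed, each with a mean of 11.6 FPKM, then Irak4 with 6.91 and Ticam1 with 6.17 FPKM. Every one of these 9 genes had more than 3 fragments in all 6 libraries. In GENCODE M21 (GRCm38), Tlr4 lies at chr4:66827584-66930284, Ly96 at chr1:16688051-16709611 and Lbp at chr2:158306493-158332852, all on the plus strand, and Cd14 lies on chromosome 18.

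Ticam2, which encodes the bridge between TLR4 and TRIF, stood apart from the rest. It had 1, 1 and 0 fragments in the LPS libraries and 0, 5 and 0 in the LPSKD libraries. In 5 of 6 libraries it was thus at or under the 3 fragments taken as the limit of detection, and no fold change is given. All 696 of its coding bases in GENCODE M21 lie inside exons of Tmed7, a neighbour on the same strand with a mean of 122 FPKM. How the authors counted fragments shared by overlapping genes is not given in the sources used here, and a low count for Ticam2 therefore does not show that its transcript was absent.

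**Figure D1:**
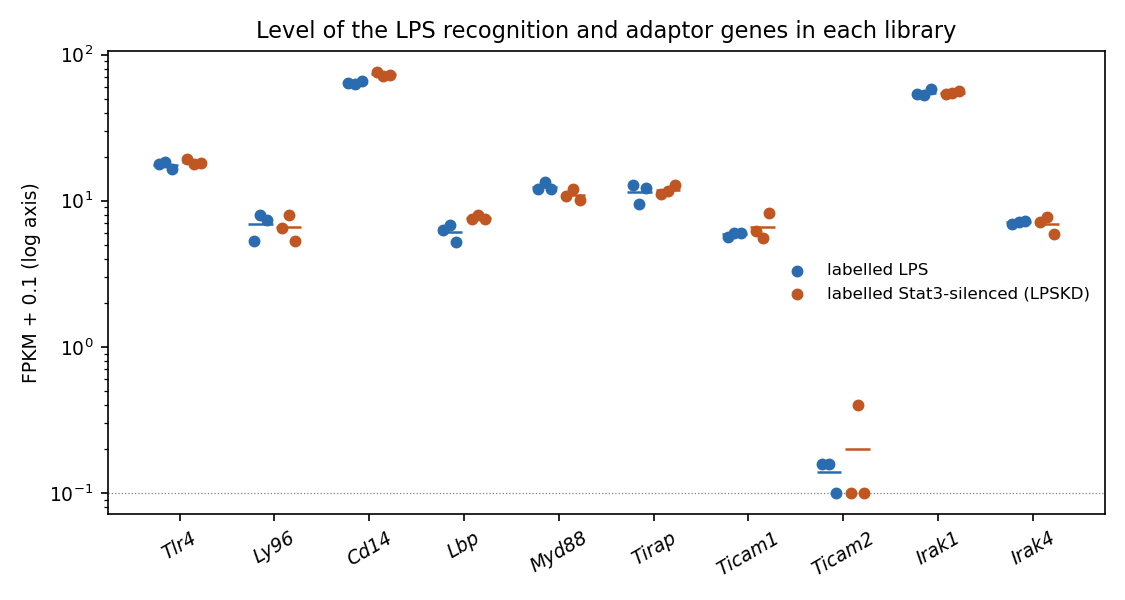
Level of each gene in each library, as FPKM + 0.1 on a log axis, with points for single libraries, short lines for the mean of 3 libraries, and a dotted line where FPKM is 0. Cd14 and Irak1 sit at the top with means of 68.7 and 54.8 FPKM, Ticam2 lies near 0, and the groups overlap for all genes but Cd14 and Lbp.

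Set in order of level per length, the genes formed steps with ties between them. In all 6 libraries Cd14 was above Irak1, Irak1 above Tlr4, Tlr4 above Tirap, Myd88 above Irak4, and Ticam1 above Ticam2. Of the coding bases of Tirap, Myd88 and Ticam2, 59.3%, 25.2% and 100% lie inside exons of other genes. How shared fragments were counted is not given in the sources used here, so the steps that involve these genes may depend on it. The differences in level within a library, on log2(FPKM + 0.1), were 0.32 ± 0.12 for Cd14 over Irak1, 1.61 ± 0.11 for Irak1 over Tlr4 and 0.63 ± 0.21 for Tlr4 over Tirap (SD, n = 6). For Myd88 over Irak4 the difference was 0.74 ± 0.11 (SD, n = 6). Each of these 5 steps had p = 0.0312 in a two-sided exact sign-flip permutation test, the smallest that 6 libraries allow, and 0.0563 after adjustment over the 9 neighbouring pairs, so that 0 of 9 passed. The other neighbouring pairs were Tirap with Myd88, Irak4 with Lbp, Lbp with Ly96, and Ly96 with Ticam1. They kept their order in 3 or 4 of 6 libraries (exact permutation p between 0.625 and 1), and the order within these pairs is not resolved beyond the spread.

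Between the groups, none of the 9 tested genes was higher or lower in limma at an adjusted p under 0.05, against 3.23% of the 11723 genes tested. Without adjustment 2 of 9, Cd14 and Lbp, had a p under 0.05 (17.6% of all genes), and with voom, limma's method for counts, 1 of 9 passed (5.1% of all genes). The same 2 genes were the ones whose groups did not overlap (23.8% of all genes), and both were higher in the LPSKD libraries (10.6% of all genes). The median log2 fold change of the 9 was 0.06, beside −0.01 for all genes tested. The 95% confidence interval stayed within 1.5-fold of no difference for 8 of 9, the exception being Lbp. Of all genes tested 80.4% stayed within that bound, and the share of the receptor and adaptor genes was thus near the background.

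Cd14, the co-receptor that hands LPS to MD-2, was at 63.5, 63.1 and 65.6 FPKM in the LPS libraries and at 76.2, 71.5 and 72.1 FPKM in the LPSKD libraries. Every LPSKD library was above every LPS library, and the spread within a group, 2.13% and 3.47% of the mean, was close to the counting error of 2.40% and 2.24%. The mean level was 14.4% higher (95% confidence interval 6.92% to 22.3%), a log2 fold change of 0.19 ± 0.04 (SE) on log2(FPKM + 0.1). Its limma p was 0.00162 and its adjusted p 0.050001, which missed the threshold of 0.05 in the sixth decimal. An exact permutation test of 3 against 3 libraries gave p = 0.1, the smallest it allows. The adjusted p of Cd14 passed in 4 of 10 alternatives with all libraries (range 0.0385 to 0.134), and in 0 of 6 with a library left out (0.0838 to 0.189), with the difference positive in all 16.

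**Figure D2:**
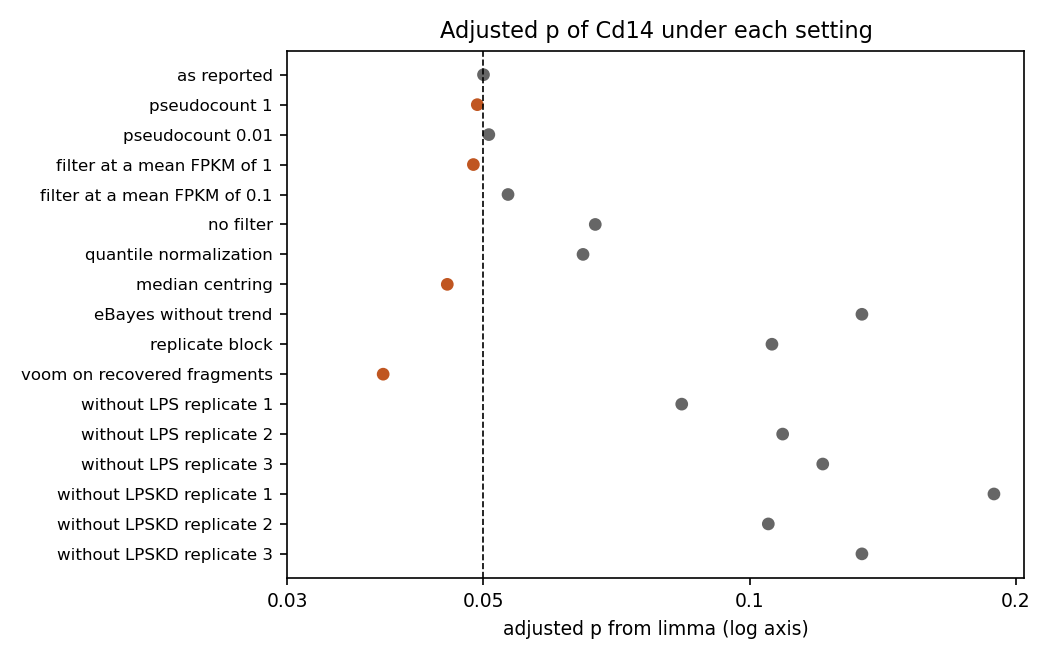
Adjusted p of Cd14 from limma under each setting, on a log axis, with a dashed line at the threshold of 0.05 and coloured points for settings that passed. The value as reported, 0.050001, lies on the line, and the other settings spread from 0.0385 (voom) to 0.189 (without LPSKD replicate 1).

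Lbp, the carrier that delivers LPS to CD14, was at 6.22, 6.72 and 5.12 FPKM in the LPS libraries and at 7.45, 7.84 and 7.37 FPKM in the LPSKD libraries. The groups did not overlap, and the LPS libraries varied more (SD of 13.6% of the mean, against 3.31%). The log2 fold change was 0.33 ± 0.12 (SE, 95% confidence interval 0.06 to 0.60), with a limma adjusted p of 0.198. Without LPS replicate 3, the lowest library, it was 0.22.

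Macrophages are rich in Cd14, and markers of leukocytes were therefore read in the same libraries. Of the 11 macrophage and leukocyte markers tested out of 12, 1 passed in limma (3.23% of all genes tested). It was Csf1r, the receptor of a macrophage growth factor (24.4 ± 2.74 against 33.3 ± 0.583 FPKM, SD, n = 3, limma adjusted p = 0.0208). With it, 2 of 11 had an unadjusted p under 0.05 (17.6% of all genes tested). The other was Cd68, a lysosomal protein of macrophages, with 13.7 ± 1.2 against 11.1 ± 1.34 FPKM (SD, n = 3, limma adjusted p = 0.197) and groups that did not overlap. Means in the LPS and LPSKD libraries were 0.761 and 0.529 FPKM for Cx3cr1, 1.03 and 0.770 for Adgre1 and 3.27 and 3.04 for Laptm5. Others went the other way: 1.19 and 1.67 FPKM for Aif1, 1.5 and 1.75 for Tyrobp, 3.7 and 4.96 for Cd52, and 3.25 and 3.43 for Fcer1g. Lyz2 was nearly equal, at 21.6 and 21.4 FPKM. Groups did not overlap for Cx3cr1 and Aif1 (23.8% of all genes), and none of these markers passed the threshold. The call of Csf1r was lost without LPS replicate 3 or any LPSKD replicate (adjusted p 0.0774 to 0.0904) and by eBayes without trend (0.0867). The summed level of the 12 was 75.2 to 75.5 FPKM in the LPS libraries and 73.0 to 93.7 FPKM in the LPSKD libraries. Ptprc, the pan-leukocyte CD45, was at 0.372 to 1.08 FPKM, and Itgam had 0 to 4 fragments a library. The part of these markers in the values of Cd14 and Lbp was not tested. Of the 3 endothelial and 6 fibroblast markers tested, led by Cdh5 and Dcn, 0 passed in limma or voom or had an unadjusted p under 0.05. In bulk RNA, fewer cells of a type and less RNA per cell cannot be told apart.

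Tlr4, the receptor itself, was at 17.7, 18.4 and 16.5 FPKM in the LPS libraries and at 19.2, 17.7 and 17.9 FPKM in the LPSKD libraries. The groups overlap, with a log2 fold change of 0.06 (95% confidence interval −0.10 to 0.21, limma adjusted p = 0.718), which puts the difference between −6.40% and 15.8%.

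Ly96, whose product MD-2 holds the lipid part of LPS, was measured less well. It was at 5.18, 7.85 and 7.32 FPKM in the LPS libraries and at 6.41, 7.86 and 5.23 FPKM in the LPSKD libraries. With 62 to 94 fragments a library, its spread within groups (20.9% and 20.2% of the mean) exceeded its counting error of 11.1% and 11.4%. The log2 fold change of −0.06 (95% confidence interval −0.49 to 0.38, limma adjusted p = 0.914) allows a difference from −29.0% to 30.1%. Its sign changed with the library left out (−0.24 without LPS replicate 1, 0.09 without LPSKD replicate 3).

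**Figure D3:**
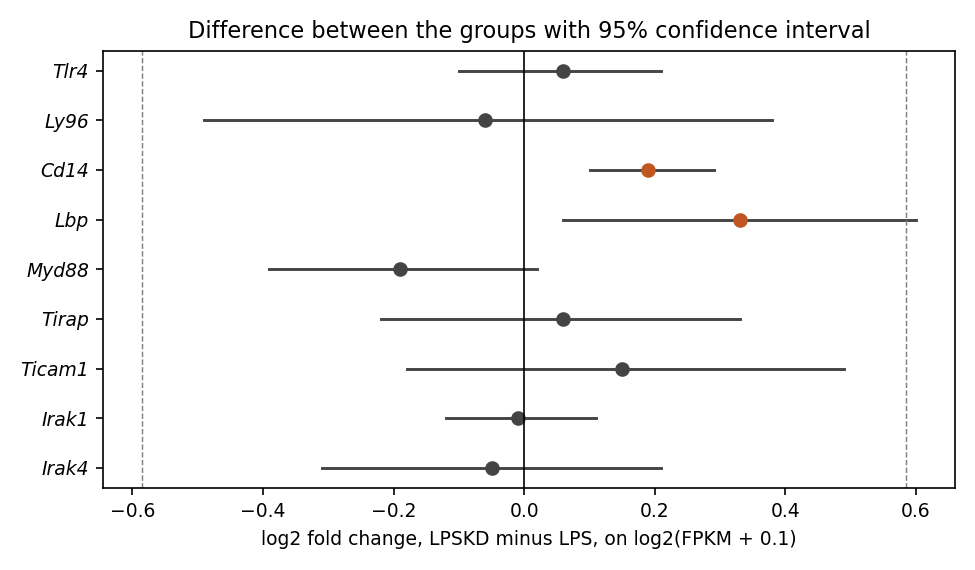
Log2 fold change of the 9 tested genes, LPSKD minus LPS libraries, with the 95% confidence interval from limma. Dashed lines mark a 1.5-fold difference, and coloured points are the 2 genes whose groups do not overlap, Cd14 (0.19) and Lbp (0.33).

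Among the adaptors, Myd88, the adaptor shared by most Toll-like and interleukin-1 receptors, had the lowest log2 fold change of the 9 genes. It was at 11.9, 13.3 and 11.9 FPKM in the LPS libraries and at 10.7, 11.9 and 9.99 FPKM in the LPSKD libraries. The groups overlap at 11.9, and the log2 fold change of −0.19 ± 0.09 (SE, 95% confidence interval −0.39 to 0.02) had a limma adjusted p of 0.340. Of its coding bases, 25.2% lie inside exons of another gene. Its overlapping neighbour Acaa1a, on the opposite strand, had a mean of 37.7 FPKM, and whether counting used strand is not given in the sources used here.

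Because Stat3 was the gene targeted, the 250 bases before the start of the listed promoters were searched for its family's motif, TTCNNNGAA, and for an interferon response motif, GAAA repeated after any 2 bases, on both strands. RefSeq promoters (GRCm38.p6) were listed for Myd88, Tirap, Ticam1, Irak1 and Irak4. A short NF-κB motif, GGG and CC with any 5 bases between, was searched for too. Of these 5 genes Myd88 alone held the first or the second motif. It held both, and they overlap, the first from 46 to 38 and the second from 40 to 31 bases before the start. Its window, chr9:119340019-119340268 on the minus strand, is printed with the joined motifs in capitals.

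Myd88: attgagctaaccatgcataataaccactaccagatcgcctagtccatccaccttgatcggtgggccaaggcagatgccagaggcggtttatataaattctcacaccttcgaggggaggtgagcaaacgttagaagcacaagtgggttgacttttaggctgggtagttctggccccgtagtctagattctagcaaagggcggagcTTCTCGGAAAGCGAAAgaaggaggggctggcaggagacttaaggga

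Over all 32851 listed promoters, 7.02% held the first motif, 2.98% the second and 45.8% the third. The 5 genes had 7 listed promoters, of which 1 held the first motif, 1 the second and 6 the third. The third was found for Tirap, Ticam1, Irak1 and Irak4 and not for Myd88. These are matches of letters and say nothing of binding.

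Tirap, which anchors MyD88 at the membrane, was at 12.8, 9.41 and 12.1 FPKM in the LPS libraries and at 11.1, 11.5 and 12.8 FPKM in the LPSKD libraries. The groups overlap (log2 fold change 0.06, 95% confidence interval −0.22 to 0.33, limma adjusted p = 0.864). Of its coding bases, 59.3% lie inside exons of genes on the opposite strand. Its overlapping neighbour Srpr, on that strand, had a mean of 64.7 FPKM. Whether counting used strand is not given, and the part of shared fragments in the level and fold change of Tirap was not tested.

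Ticam1, the TRIF adaptor, was at 5.53, 5.95 and 5.93 FPKM in the LPS libraries and at 6.11, 5.45 and 8.08 FPKM in the LPSKD libraries. A single library, LPSKD replicate 3, lay above all the others. The log2 fold change was 0.15 ± 0.15 (SE, limma adjusted p = 0.655), and it was −0.01 without that library. In the same library Myd88 and Irak4 had their lowest values, 9.99 and 5.85 FPKM.

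Neither kinase that MyD88 assembles differed beyond its spread. Irak1, which passes the signal on to TRAF6, was at 53.7, 53.0 and 58.0 FPKM in the LPS libraries and at 53.5, 54.2 and 56.2 FPKM in the LPSKD libraries. With 3197 to 3497 fragments a library its interval was narrow, from −7.81% to 7.65% (log2 fold change −0.01, limma adjusted p = 0.969). Irak4, the kinase that acts first, was at 6.82, 7.02 and 7.21 FPKM and at 7.00, 7.58 and 5.85 FPKM, which overlap (log2 fold change −0.05, 95% confidence interval −0.31 to 0.21, limma adjusted p = 0.872).

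Ratios of partner genes within a library, which do not depend on library scaling, compared the levels of their transcripts. They do not give the balance of the proteins, which was not measured here. Cd14 was 3.43 to 3.97 times Tlr4 in the LPS libraries and 3.98 to 4.04 times in the LPSKD libraries, which do not overlap. Lbp was 0.310 to 0.366 and 0.389 to 0.443 times Tlr4, which likewise do not overlap. Each had p = 0.1 in a two-sided exact permutation test, the smallest possible, and 0.25 after adjustment over the 5 ratios tested. Ly96 was 0.292 to 0.442 and 0.292 to 0.444 times Tlr4. The ratio of Myd88 to Ticam1, the adaptors of the 2 branches, was 2.15, 2.24 and 2.0 in the LPS libraries and 1.75, 2.19 and 1.24 in the LPSKD libraries, and the groups overlap (exact permutation p = 0.3). Irak4 was 0.124 to 0.132 and 0.104 to 0.140 times Irak1.

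**Figure D4:**
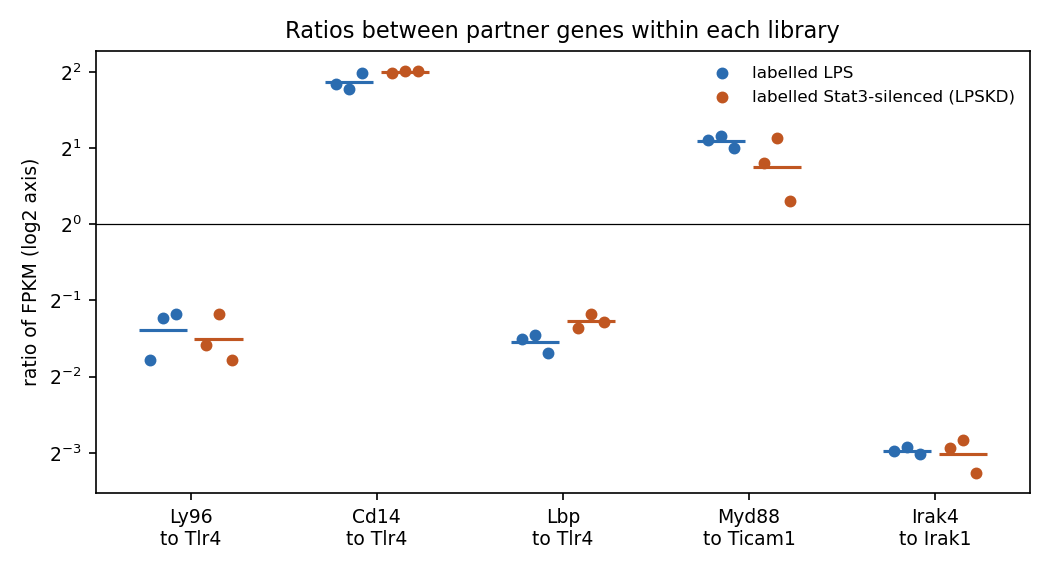
Ratio of FPKM between partner genes within each library on a log2 axis, with points for libraries and short lines for the geometric mean of 3. Cd14 to Tlr4 and Lbp to Tlr4 do not overlap between the groups (exact permutation p = 0.1 each), and the other 3 ratios do.

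The rest of the pathway was read from 9 lists of genes, from other Toll-like receptors to target genes. Together they held 111 further genes, of which 86 were tested and 13 passed in limma, 5 higher and 8 lower (1.57% and 1.66% of all genes tested). Between the adaptors and the target genes, 0 of 16 passed in the MyD88 branch, 0 of 7 in the TRIF branch and 0 of 8 in the folding and traffic of Toll-like receptors, with median log2 fold changes of −0.03, 0.04 and −0.02. By voom these counts were 0 as well, and 3, 2 and 0 genes had an unadjusted p under 0.05 in limma (17.6% of all genes tested). Irak2, a kinase partner of IRAK4, had 8.07 and 6.95 FPKM (log2 fold change −0.21, limma adjusted p = 0.384). Traf6, the ubiquitin ligase below the IRAKs, had 14.1 and 13.4 FPKM, and Irak3, an inhibitory IRAK of myeloid cells, had 0 to 6 fragments a library. Hsp90b1 and Cnpy3, the chaperones that fold TLR4, had 660 and 670 and 34.3 and 33.3 FPKM. Of the 5 other LPS-binding and partner proteins tested, 0 passed in limma or voom, and 1 had an unadjusted p under 0.05 (again beside 17.6% of all genes).

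Of the 4 Toll-like receptors tested, 1 passed (3.23% of all genes tested): Tlr3, the endosomal receptor for double-stranded RNA. It was at 65.4, 69.5 and 67.7 FPKM in the LPS libraries and at 52.3, 51.2 and 52.7 FPKM in the LPSKD libraries, with a log2 fold change of −0.37 ± 0.04 (SE, limma adjusted p = 0.00245). It was thus more abundant than Tlr4 in every library, and like TLR4 it signals through TRIF. The call held in all 16 alternatives (adjusted p 6.28e-05 to 0.0252). Tlr2 had 1.47 and 1.11 FPKM (limma adjusted p = 0.630).

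Of 15 inhibitors tested, 2 were lower (1.66% of all genes tested). Sigirr, a membrane protein known to restrain TLR4 and interleukin-1 receptors, was at 58.3, 56.6 and 62.4 FPKM in the LPS libraries and at 49.3, 51.1 and 48.6 FPKM in the LPSKD libraries (log2 fold change −0.25, limma adjusted p = 0.0359). Its call was lost without LPS replicate 1 or 3 or any LPSKD replicate (adjusted p 0.0552 to 0.135). With all libraries kept it was lost without the filter (0.0538), by eBayes without trend (0.109) and with the replicate block (0.0968). Usp18, an interferon-induced brake on interferon receptors, had 19.5 and 1.29 FPKM. Tollip, which binds IRAK1, had 55.0 and 54.8 FPKM.

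Of the genes listed for the response to LPS in the cytosol, 6 were tested and 1 passed in limma (3.23% of all genes tested). Gbp3, an interferon-induced GTPase, was lower (3.78 against 1.69 FPKM, log2 fold change −1.12, limma adjusted p = 0.0259). Leaving out LPS replicate 2 or 3 or LPSKD replicate 1 or 3 ended this call (adjusted p 0.0523 to 0.112), as did no filter (0.069), eBayes without trend (0.0655) and the replicate block (0.0617). Casp4, the mouse caspase that binds LPS, had 2.12 and 2.16 FPKM.

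At the end of the pathway, the target genes that passed in limma were higher in one list and lower in the other. Of 19 tested targets assigned to MyD88 and NF-κB, 5 were higher and 0 lower (1.57% and 1.66% of all genes tested). They were the chemokines Ccl20, Cxcl1, Cxcl2 and Cxcl5 and the iron-binding Lcn2, with log2 fold changes from 0.42 to 1.04. Of 9 tested targets assigned to TRIF and IRF3, 0 were higher and 4 lower, beside the same shares of all genes. These 4 were Cxcl10, Ifit1, Isg15 and Irf7, with log2 fold changes from −3.54 to −2.55. By voom, which called 5.1% of all genes in either direction, 7 were higher and 2 lower in the first list. In the second list 1 was higher and 6 lower, and many of its genes also answer interferon itself. The 9 receptor, adaptor and kinase genes, with log2 fold changes from −0.19 to 0.33, spanned a narrower range than either list of targets. The targets were listed with earlier results of these data known. The genes of Toll-like receptor folding and traffic spanned a narrower range still, from −0.12 to 0.07. Tested genes of the TRIF branch spanned −0.14 to 0.16, and those of the MyD88 branch a wider range, −0.59 to 0.16. A range grows with the number of genes and with the noise of low genes, so these ranges cannot rank the lists by evenness.

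**Figure D5:**
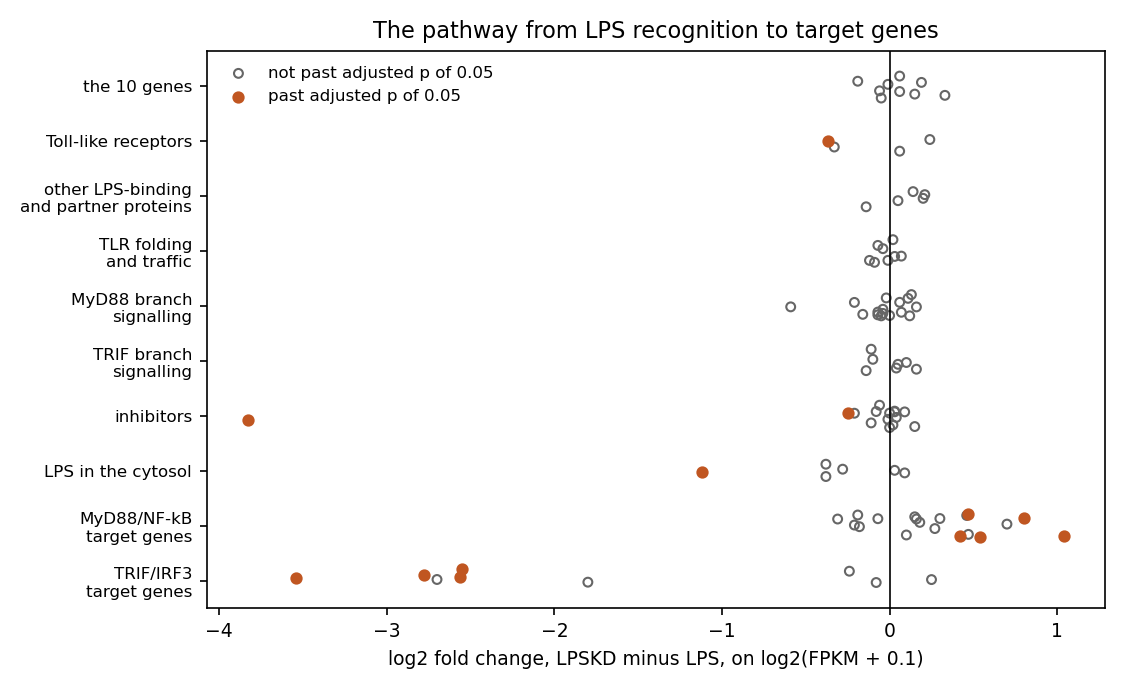
Log2 fold change, LPSKD minus LPS libraries, of each tested gene in the 10 receptor and adaptor genes and 9 further lists, with filled points for genes past an adjusted p of 0.05 in limma and vertical scatter for legibility. A gene in several lists is drawn in each. Filled points appear among the Toll-like receptors, the inhibitors, the genes listed for LPS in the cytosol and the target genes.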

How the data were processed

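Poly(A) RNA of 6 mTEC libraries, 3 a group, was sequenced as paired ends on an Illumina NovaSeq. The authors deposited FPKM values per Ensembl gene. The submitters' processing notes name Bowtie 0.12.2, HISAT2 2.0, StringTie 1.3.0 and the builds mm8 and GRCh38.p13, without roles. Names and coordinates came from GENCODE M21 (GRCm38), which matched 22399 of 22442 IDs. For 97.7% of the 16837 genes above 0 the values gave whole fragments, within 0.0001, when multiplied by the gene's merged coding length (10 extra bases allowed) and the library total, and fragments were recovered in this way. A level of 3 fragments was taken as the detection limit. Intervals and limits drawn from fragments cover counting error only.

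Log2(FPKM + 0.1) was fitted in limma 3.58.1 under R 4.3.3, with a mean-variance trend in eBayes, over the genes whose mean FPKM reached 0.5, with Benjamini-Hochberg adjustment at 0.05 over all 11723 genes tested. This scale understates changes of low genes. The study names no test for these data. Permutation tests were exact and two-sided. The fit was also run on simulated counts in which every gene had the same dispersion setting, and no result here rests on that run. Other analyses used Python 3.11.15, numpy 2.4.6, pandas 2.3.3 and matplotlib 3.10.9.

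Genes named are the 10 receptor and adaptor genes, Stat3, of each other list the genes past the threshold (3 rises and 3 falls where over 6 passed), the leading gene of each marker list, defining markers at 0, and Irak2, Irak3, Traf6, Tollip, Sigirr, Hsp90b1, Cnpy3, Tlr2, Tlr3 and Casp4. Ptprc, Itgam, Cd68, Cx3cr1, Adgre1, Aif1, Tyrobp, Cd52, Fcer1g, Lyz2, Laptm5, Acaa1a, Srpr and Tmed7 were added after their values were seen. The genes and lists were chosen with earlier results of these data known. Of the listed genes, Irgb10 matched no symbol. Alternatives were pseudocounts of 1 and 0.01, filters at 1 and 0.1 and no filter, quantile normalization, median centring, replicate numbers as a block, eBayes without trend, voom on recovered fragments, and omission of each library. In 10 housekeeping genes, 0 passed in limma, 2 had an unadjusted p under 0.05 (17.6% of all genes) and 2 passed by voom (5.1% of all genes).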

Additional observations from a re-analysis of the deposited data

How the results depend on the processing

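The count of genes past the threshold, 379 as reported, was 140 by eBayes without trend, 213 with the replicate number as a block and 598 by voom, and 158 to 356 with a library left out (158 without LPS replicate 3, 178, 192 and 168 without LPSKD replicates 1, 2 and 3). The count among the receptor and adaptor genes, 0 as reported, was 1 (Cd14) with a pseudocount of 1, with a filter at a mean FPKM of 1, with median centring and by voom. It was 0 in each fit with a library left out. In the pathway lists 13 genes passed, 20 by voom and 11 to 14 with a library left out. The cause of these changes was not tested, except that fits without a library have fewer samples. None of the 379 called genes changed sign under these alternatives, with 376 of them kept by the filter at 1. Replicate numbers are shared between the groups, but the deviations of same-numbered libraries correlated at −0.016, −0.00388 and −0.0426, so no shared deviation was visible. These correlations cannot tell whether same-numbered libraries were prepared together. The replicate block lowered the count of calls from 379 to 213, ending those of Sigirr, Gbp3 and Krt18 among others. The fewest fragments were those of Ticam2 and Ly96, at most 5 and 94 a library. The part of depth in their values was not tested.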
